A study of Mus musculus with 93 samples.

Results

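Spheroids of mouse embryonic stem cells (ESCs) that carry Hcn4-GFP, Tbx1-Cre and Ai9 were sorted into GFP+ and RFP+ cells at day 5.5 of differentiation, and the RNA of both populations was compared over all genes. The members were chosen by the sample titles: 38 spheroid wells of GFP+ cells and 46 of RFP+ cells among the 93 libraries of the series, each made from 10 sorted cells. The GFP+ well C9 was left out, since it held 6288 counts, which leaves 37 GFP+ and 46 RFP+ libraries (83 in all). Both populations carried all of these alleles and came from ESCs derived from blastocysts of such mice. Spheroids were induced with Activin A, Bmp4 or Wnt proteins, alone or combined, and which of these the sequenced wells received is not given in the sources used here. GFP reports current Hcn4 expression. RFP is a permanent mark, which Cre driven by Tbx1 switches on from the Ai9 allele, so that an RFP+ cell may have stopped expressing Tbx1.

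Hcn4 encodes a pacemaker channel that marks the first heart field (FHF), the progenitors of the left ventricle and atria. Tbx1 encodes a T-box transcription factor of pharyngeal mesoderm, which contributes second heart field (SHF) cells to the outflow tract and right ventricle and also builds the muscles of the head. Both fields leave the primitive streak as mesoderm. The FHF belongs to the lateral plate, where Hand, Gata and Bmp genes act, whereas Foxc, Pax, Meox and Tcf15 genes are known from the neighbouring paraxial mesoderm, which forms the somites.

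The counts of GFP+ libraries summed to 828193 to 4371849 (median 1792490), those of RFP+ libraries to 445071 to 5658882 (median 1449700). The number of genes with a count per library was 12837 to 14671 in GFP+ wells and 11434 to 13880 in RFP+ wells. GFP+ wells filled plate columns of their own and RFP+ wells others, so the effect of the plate column cannot be told apart from that of the population, and no label ties a well to a differentiation. The p-values therefore measure the spread between wells, which may be technical. In 7 plate rows the RFP+ wells of columns 3 and 4 were closely alike (r between log2 CPM of 0.956 to 0.989, against a median of 0.923 for the other RFP+ pairs), with r of at most 0.945 among those others. They differed by more than counting noise (chi-square per gene of 1.37 to 2.39), but by less than 100 other RFP+ pairs (at least 3.36). Libraries amplified separately from the same cells can also differ by more than counting noise, so whether these wells are distinct samples is not known and 46 may exceed the number of distinct RFP+ samples. They were kept as separate libraries, and with each pair summed 7651 genes were called, against 7789.

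Of 9990 genes tested, 7789 (78%) differed between the populations at an adjusted p under 0.1 (edgeR quasi-likelihood test), with 3955 (39.6%) on the GFP+ side and 3834 (38.4%) on the RFP+ side. A call alone thus says little about a gene here, and size separated the populations differently. A log2 fold change of at least 2 in size (a 4-fold change) was found for 6.22% of all genes tested among the calls: 523 (5.24%) were higher in GFP+ cells and 98 (0.981%) were higher in RFP+ cells. At a log2 fold change of at least 3 the numbers were 140 and 34, and at 4 they were 11 and 11. In the order of size, Lipo3 and Abhd4 stood just inside the 4-fold limit. Ell3 (log2 fold change -1.999) and then Plxnd1 (1.99) stood just outside. Throughout, a positive log2 fold change means a higher level in RFP+ cells, and levels are given as CPM, the counts scaled to a common library size after TMM. With pools of cells, fewer cells of a type and less RNA per cell cannot be told apart.

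**Figure D1:**
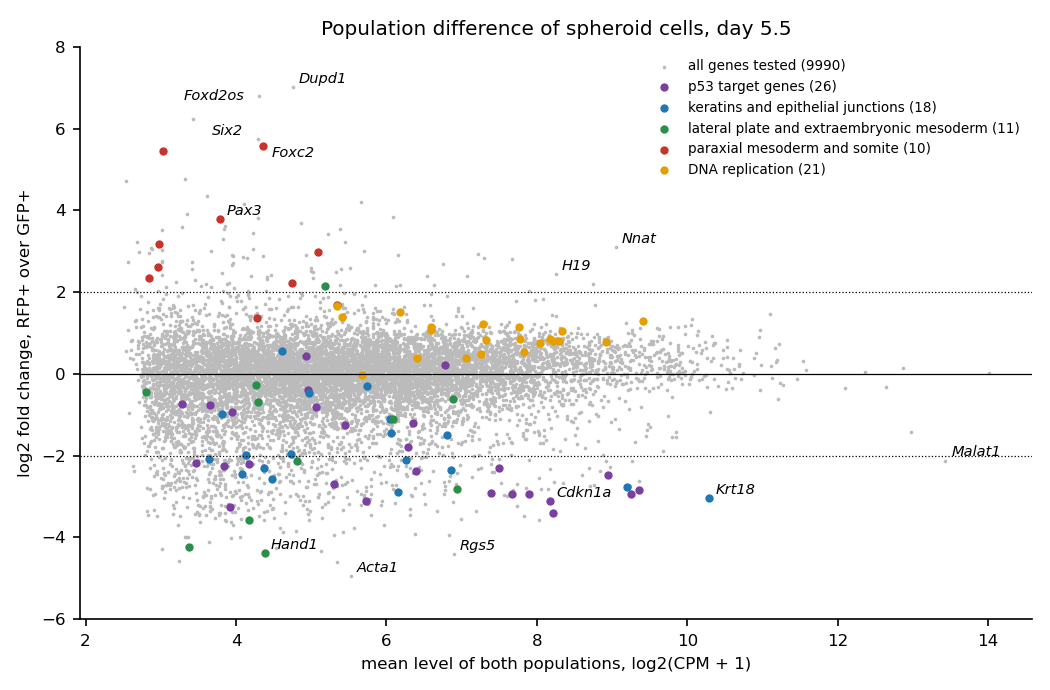
Log2 fold change (RFP+ over GFP+) of the 9990 genes tested against the mean level of both populations in log2(CPM + 1); each point is a gene, colours mark 5 gene lists and dotted lines the 4-fold limits. The p53 target, keratin and lateral plate genes lie mostly below 0, the 10 paraxial genes all above it, and 20 of the 21 DNA replication genes between 0 and 2.

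The genes that the reporters stand for separated the wells in the direction of their labels. Hcn4 (chr9:58822949-58863175, GRCm38.p6) had 1.24 to 17.4 CPM in GFP+ wells (median 7.87) and 0 to 2.58 CPM in RFP+ wells (median 0). All 37 GFP+ wells held Hcn4 counts, against 18 of 46 RFP+ wells, and 32 GFP+ wells exceeded the highest RFP+ well. Tbx1 (chr16:18580979-18590671) was measured at 0 to 8.58 CPM in RFP+ wells (median 2.46), and 41 of them held counts. In GFP+ wells Tbx1 gave 2 counts in all, so the ratio of the pooled values, 91.5, has a counting interval of 25.0 to 761 (exact, 95%). Both genes were too low for the main test. Without a filter on low counts the log2 fold change of Hcn4 was -3.85 with an adjusted p of 1.49e-19, and that of Tbx1 had an adjusted p of 5.45e-21. A two-sided permutation test of log2(CPM + 1) gave 1e-05 for each, the smallest p that 100000 resamples can give. The cells were sorted on reporters of these genes, so these values check the labels and are no independent result. The alike RFP+ wells entered the test as separate wells.

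Krt18 and Hand1 mark GFP+ cells here, and Six2 and Foxc2 mark RFP+ cells. Krt18, a keratin of simple epithelia (chr15:102028216-102032026), had 1072 to 4243 CPM in GFP+ wells (median 2091) and 24.1 to 657 CPM in RFP+ wells (median 238). The ranges did not overlap, and the log2 fold change was -3.03 ± 0.16 (SE; adjusted p = 3.51e-32). Hand1, a basic helix-loop-helix factor of lateral plate and extraembryonic mesoderm (chr11:57828713-57832147), had a median of 33.8 CPM in GFP+ wells (0 to 139) and of 0 in RFP+ wells (0 to 19.5). It was detected in 36 of 37 GFP+ and in 14 of 46 RFP+ wells, with a log2 fold change of -4.38 ± 0.37 (adjusted p = 4.05e-19). Six2, a homeobox factor of the SHF and head mesenchyme (chr17:85662736-85688254), had 17.2 to 61.7 CPM in RFP+ wells (median 36.4) and at most 4.97 CPM in GFP+ wells. Foxc2, a forkhead factor of paraxial and pharyngeal mesoderm (chr8:121116171-121118895), had 15.3 to 64.1 CPM in RFP+ wells (median 38.5) and at most 10.5 CPM in GFP+ wells. For both genes every RFP+ well was above every GFP+ well, and the folds were 53.4 (Six2) and 47.5 (Foxc2).

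**Figure D2:**
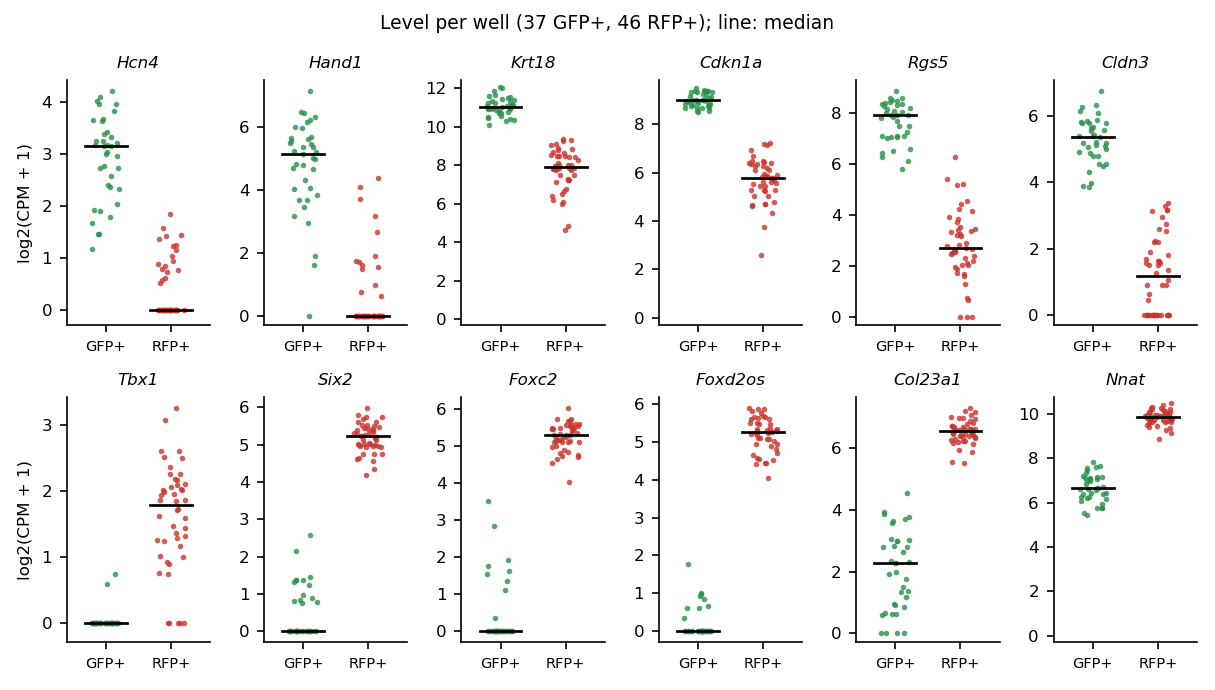
Level per well, in log2(CPM + 1), of 6 genes higher in GFP+ cells (upper row) and 6 higher in RFP+ cells (lower row); each point is a well (37 GFP+, 46 RFP+) and each line a median. The ranges are separate for Krt18, Cdkn1a, Cldn3, Six2, Foxc2, Foxd2os, Col23a1 and Nnat, and overlap for Hcn4, Hand1, Rgs5 and Tbx1.

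Defining genes of the cardiac lineage were low in both populations. Nkx2-5, the homeobox factor of cardiac progenitors, was found in 2 of 37 GFP+ wells and 1 of 46 RFP+ wells. Tbx5, a T-box factor of the FHF, was found in 16 GFP+ and 7 RFP+ wells, with medians of 0 in both. Gata4, a zinc finger factor of cardiac mesoderm and endoderm, had medians of 5.59 CPM in GFP+ and 3.43 CPM in RFP+ wells, and Tnnt2, cardiac troponin T, 3.50 and 3.47 CPM. On the other side, Msc and Lhx2, factors of pharyngeal muscle progenitors, had medians of 0 and 0.230 CPM in RFP+ wells. Tcf21, another factor of these progenitors, was found in 37 of 46 RFP+ wells (median 2.31 CPM) and in 25 of 37 GFP+ wells (median 2.65 CPM). The wells were thus set apart by Hcn4 and Tbx1 as labelled, while Nkx2-5, Tbx5 and Msc had medians of 0 in both populations. Isl1, a LIM factor of both fields, was higher in GFP+ wells (median 61.0 CPM, range 21.7 to 158) than in RFP+ wells (median 23.5 CPM, 7.99 to 46.9), with a log2 fold change of -1.39 ± 0.12 (adjusted p = 4.71e-18). Of the 14 heart field genes that the study names, 8 passed the filter, of which GFP+ cells were higher in 3 and RFP+ cells in 5. The shares of all genes tested were 39.6% and 38.4%. The study names some of the 14 as known markers and some from its RNA sequencing, which includes these samples. The list is thus no independent evidence of its direction.

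The lateral plate genes that were tested moved mostly towards the GFP+ population. Of the 21 genes listed for lateral plate and extraembryonic mesoderm, 11 passed the filter, with 8 on the GFP+ side, 1 on the RFP+ side and 2 without a call. Their median log2 fold change was -1.11, against -0.01 over all genes tested. The counts stand beside 39.6% (GFP+ side) and 38.4% (RFP+ side) of all genes tested. Hand1 and Hand2, with RFP+ medians of 0, passed the filter through the GFP+ wells where they are high. The list was also chosen with earlier results of these data known. Its counts may therefore partly follow from the filter and from that choice. Without the filter the median over all 21 genes was -1.65. Hand2, the partner of Hand1 in the heart and limb, had 1.15 to 38.4 CPM in GFP+ wells (median 18) and at most 8.18 CPM in RFP+ wells, a log2 fold change of -4.24 ± 0.30. Msx2, a homeobox target of Bmp signalling, differed by -3.56 ± 0.31, and Bmp4, the ligand, by -2.14 ± 0.24. Prrx2, a homeobox factor of mesenchyme, was the exception: its 30.6 to 99.1 CPM in RFP+ wells lay above the 1.58 to 29.8 CPM of the GFP+ wells. Prrx1, its paralog, was higher in GFP+ cells (-1.11 ± 0.12). Gata6 and Pmp22 did not pass the test, with log2 fold changes of -0.43 and -0.26. With the alike wells of columns 3 and 4 summed, 10 of these genes were tested and their median was -1.67.

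An epithelial set accompanied the lateral plate genes in GFP+ cells. All 18 genes of keratins and epithelial junctions were tested, with 17 on the GFP+ side, 1 on the RFP+ side and a median of -2.03 (log2 fold change). Of the 17, 9 passed the 4-fold limit. Among all genes tested, 39.6% were called higher in GFP+ cells, and 5.24% by at least 4-fold. Krt8, the keratin that pairs with Krt18, had 504 to 2307 CPM in GFP+ and 8.84 to 412 CPM in RFP+ wells. Processed pseudogenes of Krt8 and Krt18 exist, so some reads of these genes may have been shared with copies. Among desmosome genes, Jup (plakoglobin) differed by -2.88 ± 0.13 without overlap between the wells, Pkp2 (plakophilin 2) by -2.58 ± 0.19 and Dsp (desmoplakin) by -2.35 ± 0.13. Epcam and Cdh1, which join epithelial cells to each other, differed by -2.12 ± 0.13 and -1.45 ± 0.12. Podxl, a sialomucin of the apical surface, was the gene higher in RFP+ cells (0.57 ± 0.14). Cdh2, the cadherin of mesenchymal and cardiac cells, had the opposite direction to Cdh1, with medians of 22.2 CPM in GFP+ and 53.8 CPM in RFP+ wells (1.22 ± 0.10).

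The 25 largest differences of the GFP+ population, among genes detected in at least 90% of its wells, ran from -4.95 (Acta1) to -3.70 (Ano3). Acta1, skeletal muscle actin (chr8:123891758-123894775), had 2.81 to 317 CPM in GFP+ wells (median 43.9) and 0 to 27 CPM in RFP+ wells (median 0), with an adjusted p of 4.58e-20. Its sequence is close to that of the other actins, so its share of actin reads is uncertain. Rgs5, a regulator of G protein signalling known from pericytes (chr1:169655501-169695813), had a median of 239 CPM in GFP+ wells (55.4 to 456) and of 5.48 CPM in RFP+ wells (0 to 76.2), and 35 GFP+ wells lay above every RFP+ well. Cldn3, a tight junction claudin, had 13.5 to 106 CPM in GFP+ and at most 9.46 CPM in RFP+ wells, so that the ranges did not overlap. The same held for Hspb1, a small heat shock protein (26.8 to 147 against 0 to 15.3 CPM), for Ckmt1, a mitochondrial creatine kinase (26.2 to 146 against 0 to 24.3 CPM), and for Ano3, of the anoctamin family (48.7 to 195 against 0 to 29.7 CPM). Ppl (periplakin, -3.98) and Eppk1 (epiplakin, -3.71) are cytolinkers of epithelial keratin filaments and were not on the epithelial list. Anxa1, a phospholipid-binding annexin (-3.95), Spp1, the secreted osteopontin (-3.84), and Chrnb1, a subunit of the muscle acetylcholine receptor (-4.29) were also among the 25, as were Lrrc17 (-4.58) and the X-linked Nxf2 (-4.60), Trap1a (-3.92) and Taf7l (-3.87).

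Genes activated by p53 stood among the widest separations. Of 27 listed targets, 26 were tested: 24 were higher in GFP+ and 2 (Bax and Sesn1) higher in RFP+ cells, and 13 did not overlap between the populations, against 3.24% of all genes tested. In 16 the difference was at least 4-fold, and the median log2 fold change was -2.28. Among all genes tested, 39.6% were called higher in GFP+ cells, and 5.24% by at least 4-fold. Cdkn1a, the cell cycle inhibitor p21, had the widest gap of all genes higher in GFP+ cells, with 366 to 711 CPM in GFP+ and 5.06 to 150 CPM in RFP+ wells (-3.11 ± 0.13, adjusted p = 2.28e-40). Mdm2, the ubiquitin ligase that degrades p53, had 673 to 1697 CPM against 44.5 to 420 CPM. Ccng1, cyclin G1, had 519 to 1245 CPM against 60.6 to 295 CPM, and Trp53inp1, a p53-induced nuclear protein, 574 to 1528 CPM against 57.6 to 288 CPM. Perp, a target that is also a desmosome protein, had the largest difference of the list (-3.41 ± 0.17). Among the targets that promote death, Pmaip1 (Noxa) and Bbc3 (Puma) differed by -2.94 ± 0.12 and -2.19 ± 0.15, whereas Bax was slightly higher in RFP+ cells (0.23 ± 0.08).

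Promoters of 3 of these targets are shown for the p53 motif that they hold just before a start. A p53 response element consists of a pair of decamers. Of 27025 genes with a RefSeq promoter window (GRCm38.p6), 8.20% hold a p53 decamer on either strand in the 250 bases before a start and 0.0666% hold a pair of decamers up to 13 bases apart. Among the 19 p53 targets with a window, 9 hold a decamer (Cdkn1a, Mdm2, Ccng1, Bax, Sesn1, Gadd45a, Aen, Polk and Ei24), and Cdkn1a alone holds a pair. Bax and Sesn1, the targets higher in RFP+ cells, hold a decamer as well. Capitals mark the motif, which is a match of letters and not a measured site. Cdkn1a has 2 windows, of which 1 is printed. In that window the motif is the pair with its spacer, 73 to 42 bases before the start that the window precedes.
Cdkn1a, chr17:29090729-29090978, plus strand: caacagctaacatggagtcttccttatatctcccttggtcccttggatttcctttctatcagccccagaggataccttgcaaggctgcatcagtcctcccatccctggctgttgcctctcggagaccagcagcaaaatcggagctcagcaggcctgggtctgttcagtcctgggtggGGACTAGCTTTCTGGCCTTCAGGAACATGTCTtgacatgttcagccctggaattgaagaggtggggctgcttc
Mdm2, chr10:117710759-117711008, minus strand: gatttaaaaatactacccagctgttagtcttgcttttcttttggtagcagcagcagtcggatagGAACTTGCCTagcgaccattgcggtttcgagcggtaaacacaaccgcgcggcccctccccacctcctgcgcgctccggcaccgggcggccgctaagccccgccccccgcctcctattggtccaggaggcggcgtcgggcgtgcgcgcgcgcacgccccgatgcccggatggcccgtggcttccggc
Ccng1, chr11:40755287-40755536, minus strand: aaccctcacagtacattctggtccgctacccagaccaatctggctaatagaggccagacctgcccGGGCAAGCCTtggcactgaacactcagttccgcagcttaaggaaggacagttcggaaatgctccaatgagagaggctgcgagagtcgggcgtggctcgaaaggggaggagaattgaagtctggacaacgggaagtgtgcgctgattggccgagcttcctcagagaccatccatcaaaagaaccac

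Contractile genes differed between the populations and, more than most, between GFP+ wells. Of 25 listed sarcomere genes, 7 passed the filter on low counts, 6 were higher in GFP+ cells and Actc1 was not called (-0.26 ± 0.38). Over all genes tested, 39.6% were higher in GFP+ cells. Ttn, the giant spring of the sarcomere, had 1.20 to 280 CPM in GFP+ wells (median 21.9) and 0 to 31.5 CPM in RFP+ wells (median 3.32). Des, the muscle intermediate filament desmin, had 3.35 to 50.6 CPM in GFP+ and 0 to 11.8 CPM in RFP+ wells (-2.45 ± 0.22). Myl7, the atrial myosin light chain, was called higher in GFP+ cells (-1.44 ± 0.48, adjusted p = 0.00586), yet its median was 2.04 CPM in GFP+ and 6.86 CPM in RFP+ wells. Its GFP+ mean rested on 6 wells above 100 CPM (up to 379 CPM), a level that no RFP+ well reached. Myl7 had the widest spread between GFP+ wells of all genes tested (SD of 2.68 on the log2 scale, against a median of 0.50 over genes). Its spread was also wide between RFP+ wells (SD of 1.88, rank 7, against a median of 0.45). Actc1, cardiac actin, had a lower median in GFP+ (2.73 CPM) than in RFP+ wells (17.2 CPM), with 1 GFP+ well above 100 CPM. In the 5 GFP+ wells highest in Myl7, Tnnt2 lay between 63.1 and 126 CPM and Hcn4 between 5.59 and 11.4 CPM, close to the Hcn4 median of all GFP+ wells.

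**Figure D3:**
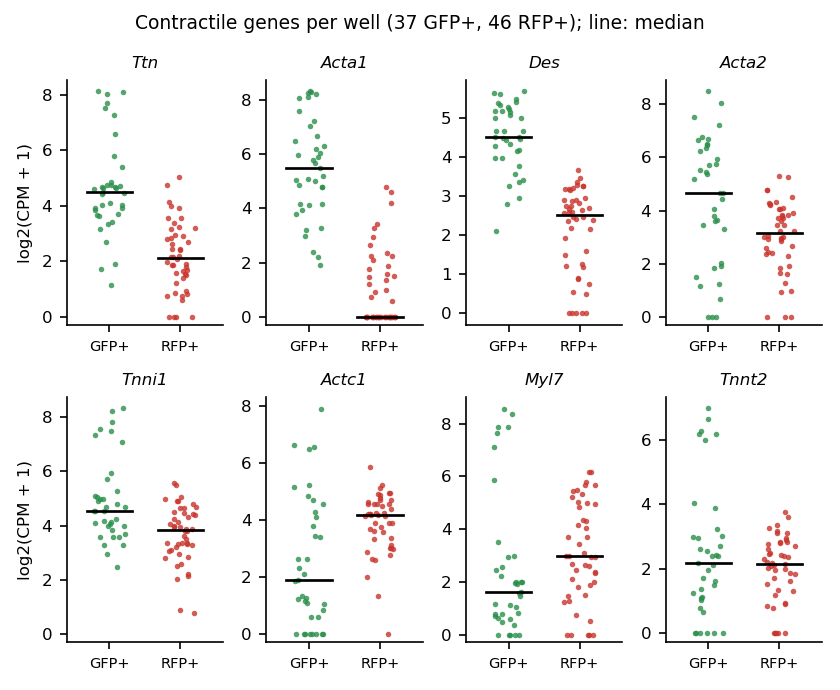
Level per well, in log2(CPM + 1), of 8 contractile genes; each point is a well (37 GFP+, 46 RFP+) and each line a median. Ttn, Acta1 and Des have higher GFP+ medians, while Myl7 and Actc1 have lower GFP+ medians and a few GFP+ wells far above all RFP+ wells.

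The wells high in Myl7 tended to be high in other sarcomere genes. Across the 37 GFP+ wells, Spearman's rho with Myl7 was 0.65 for Tnni1, 0.61 for Ttn, 0.57 for Myl4 and 0.44 for Tnnt2, and -0.06 for Acta1; across the 46 RFP+ wells the values were 0.04, 0.03, 0.34, -0.09 and -0.31. These are descriptions over wells that differ in depth. Acta1 thus did not follow Myl7 across GFP+ wells. The Acta1 promoter holds a CArG box, the motif that serum response factor binds, as do 1.62% of all promoter windows and those of 6 of 22 sarcomere genes (Actc1, Myl3, Myl7, Nebl, Myom1 and Ldb3). It is printed with the box in capitals, 73 to 64 bases before the start.
Acta1, chr8:123894776-123895025, minus strand: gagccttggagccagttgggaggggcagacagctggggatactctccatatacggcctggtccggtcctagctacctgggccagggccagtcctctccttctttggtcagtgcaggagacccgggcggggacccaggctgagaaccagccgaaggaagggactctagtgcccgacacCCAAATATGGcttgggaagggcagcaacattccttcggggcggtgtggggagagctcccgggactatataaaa
Other genes of the actin cytoskeleton and smooth muscle were split, with 14 of 22 tested higher in GFP+ and 6 in RFP+ cells and a median log2 fold change of -0.27. These counts stand beside 39.6% and 38.4% of all genes tested. Acta2, smooth muscle actin, differed by -2.44 ± 0.35 and Csrp1, a LIM protein of smooth muscle, by -1.90 ± 0.15. Myl9, a light chain of smooth muscle myosin, was higher in RFP+ cells (0.79 ± 0.23). Of 18 genes for calcium handling and coupling, 4 were tested, and Atp2a2, the calcium pump of the sarcoplasmic reticulum, Slc8a1, the sodium-calcium exchanger, and the connexins Gjc1 and Gja1 were all higher in RFP+ cells, Gja1 by 0.10. That direction held for these 4 genes, since the median of the list turned from 0.70 to -0.29 over all 18 genes without a filter on low counts and to -0.39 over 17 genes with DESeq2.

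RFP+ cells carried the largest differences of the comparison. Dupd1, a dual-specificity phosphatase (chr14:21676565-21714576), had 16.8 to 111 CPM in RFP+ wells (median 49.4) and was detected in 6 of 37 GFP+ wells, at most at 7.78 CPM. Its log2 fold change of 7.03 ± 0.26 (adjusted p = 6.89e-44) rests on 23 counts over the GFP+ wells. Foxd2os, a transcript read against Foxd2 (chr4:114909257-114921118), had 15.5 to 58.1 CPM in RFP+ wells and at most 2.39 CPM in GFP+ wells, the widest gap of all genes. Whether the counting used strand is not given in the sources used here, so reads of Foxd2os and its neighbour cannot be told apart. Abca9, a lipid transporter, followed with 4.89 to 52.5 CPM against at most 2.79 CPM (6.24 ± 0.29). Genes with no overlap were 124 (1.24%) on the RFP+ side and 200 (2%) on the GFP+ side.

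Paraxial mesoderm genes were higher in RFP+ cells. Of 22 listed genes, 10 were tested and 10 were higher in RFP+ cells, 8 of them by more than 4-fold, against 0.981% of all genes tested. The median log2 fold change was 2.80, and 2 genes did not overlap. Tcf15, Foxc2 and Pax3, with a GFP+ median of 0, passed the filter through the RFP+ wells where they are high. The counts of this list therefore partly follow from the filter. Without it the median over all 22 genes was 2.35. Tcf15 (paraxis), which somites need to become epithelial, had 6.03 to 29.2 CPM in RFP+ and at most 1.97 CPM in GFP+ wells (5.46 ± 0.27). Pax3, of the dermomyotome and muscle precursors, had 7.75 to 52.9 CPM in RFP+ wells (median 23.1) and a median of 0 in GFP+ wells (3.79 ± 0.31). Pax9, of sclerotome and pharyngeal endoderm, differed by 3.17 ± 0.30, Meox1 by 2.98 ± 0.24 and Tbx6, of presomitic mesoderm, by 2.62 ± 0.27. T (Brachyury), of the primitive streak, had medians of 55.1 CPM in RFP+ and 12.5 CPM in GFP+ wells (1.69 ± 0.24), and Dll1, the Notch ligand, differed by 1.36 ± 0.21. Below the filter, Msgn1 and Ripply2, of presomitic mesoderm, were found in 34 and 35 RFP+ wells and in 3 and 5 GFP+ wells.

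The cardiopharyngeal list gave a less even picture. Of 16 genes tested among 23, 10 were higher in RFP+ cells, Isl1 was higher in GFP+ cells and 5 had no call. The median was 1.00 (log2 fold change), and 0.39 over 6 genes at a minimum count of 50. The counts stand beside 38.4% (RFP+ side) and 39.6% (GFP+ side) of all genes tested. Factors that cooperate in head muscle and SHF progenitors differed unequally. Eya2 (2.96 ± 0.33) was higher in RFP+ cells, as was Six2, whereas Six4 (0.06 ± 0.09) and Eya1 (0.08 ± 0.11) did not pass the test. Ebf2 and Ebf1, factors of mesenchyme and pharyngeal muscle, differed by 3.42 ± 0.23 and 2.89 ± 0.22, and Ebf3 by 0.74 ± 0.19. Fgf10, an SHF ligand, had medians of 38.7 CPM in RFP+ and 15 CPM in GFP+ wells (1.14 ± 0.20).

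**Figure D4:**
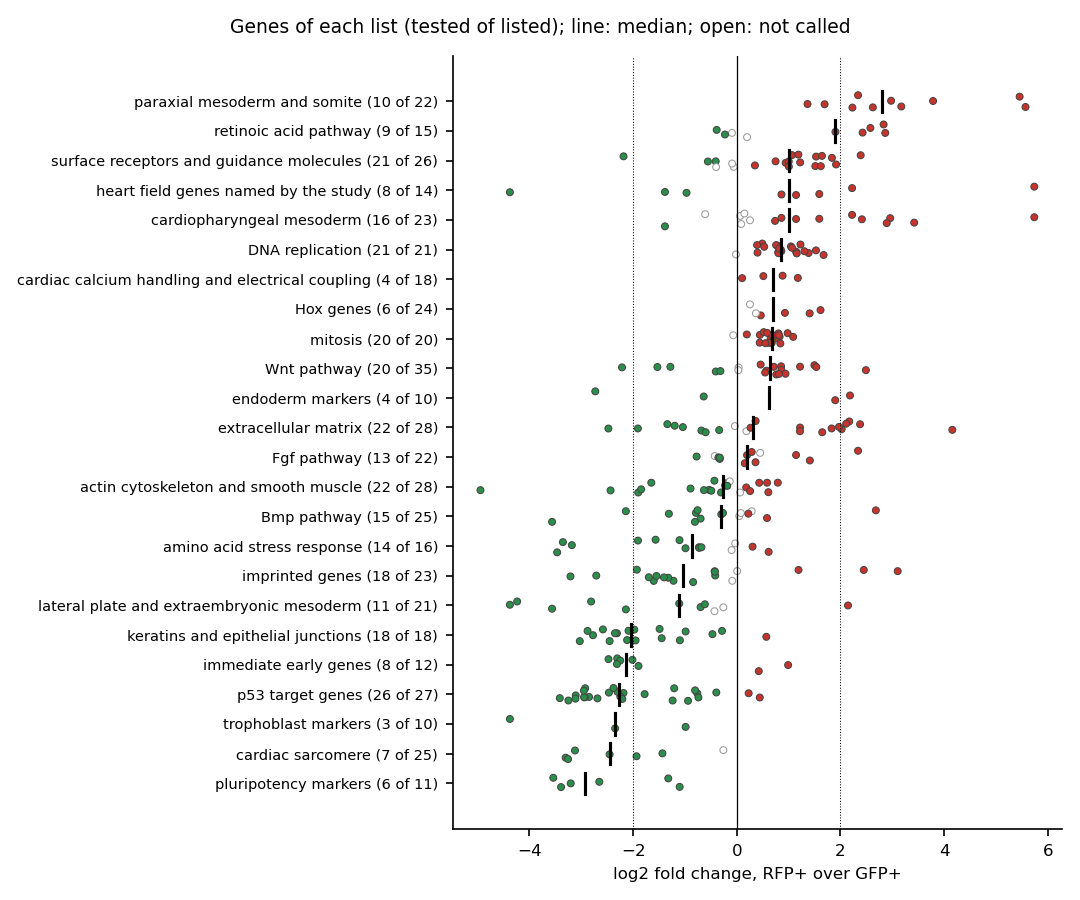
Log2 fold change (RFP+ over GFP+) of the tested genes of 24 gene lists, in the order of their medians (black lines); filled points are called genes, green where higher in GFP+ and red where higher in RFP+ cells, and dotted lines mark 4-fold. The paraxial list has the highest median (2.80), and the sarcomere (-2.45) and pluripotency (-2.93) lists the lowest.

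Signalling genes are given by their roles. Among ligands, Bmp4 (-2.14 ± 0.24), Bmp7 (-0.81 ± 0.12) and Bmp5 (-0.70 ± 0.16) were higher in GFP+ cells, and so was Wnt3, a ligand of the primitive streak (-2.21 ± 0.25). Of the receptors, Bmpr1a did not pass the test (0.05 ± 0.07), while the Wnt receptors split: Fzd3 (1.22 ± 0.07) and Fzd7 (0.86 ± 0.10) were higher in RFP+ cells and Fzd5 (-1.53 ± 0.24) and Fzd6 (-1.28 ± 0.21) in GFP+ cells. The tested secreted modulators Fst, Dkk1, Sfrp1 and Rspo3 were all higher in RFP+ cells. Fst, the activin and Bmp antagonist follistatin, had 70.1 to 275 CPM in RFP+ wells and 1.16 to 75.4 CPM in GFP+ wells (2.68 ± 0.14), Sfrp1, a Wnt antagonist, differed by 1.53 ± 0.11, and Rspo3, an enhancer of Wnt signals, by 2.49 ± 0.25. Among targets, Smad7 (-1.31 ± 0.21) and Id2 (-0.76 ± 0.11) of the Bmp pathway were higher in GFP+ cells and Id3 (0.58 ± 0.08) in RFP+ cells, and Axin2 (0.71 ± 0.14) and Lef1 (0.57 ± 0.10) of the Wnt pathway were higher in RFP+ cells. By count, 9 of 15 tested Bmp genes fell on the GFP+ side and 3 on the RFP+ side, and of 20 tested Wnt genes 5 and 13; the medians were -0.30 and 0.64. Over all genes tested, 39.6% were on the GFP+ side and 38.4% on the RFP+ side.

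Retinoic acid genes contained some of the larger RFP+ differences. Of 9 tested among 15, 5 stood on the RFP+ side and 2 on the GFP+ side, and the median log2 fold change of 1.90 depended on the filter, since it was 0.22 over the 15 genes without a filter on low counts. Aldh1a2, which makes retinoic acid, had medians of 67.8 and 16.1 CPM (1.90 ± 0.25), Cyp26a1, which degrades it, 26 and 1.14 CPM (2.86 ± 0.33), and Rarb, a receptor and target, 11.8 and 0.681 CPM (2.43 ± 0.32), each with the RFP+ value given before the GFP+ value. In the Fgf list, Fgf17 (2.34 ± 0.39) and Spry4 (1.41 ± 0.19) were higher in RFP+ cells and Dusp4 (-0.78 ± 0.26) and Dusp6 (-0.33 ± 0.10) in GFP+ cells, for 7 and 4 of 13 tested genes. Of 24 Hox genes, 6 were tested and 4 were higher in RFP+ cells, led by Hoxb1 (1.61 ± 0.24) and Hoxa2 (1.41 ± 0.20). Beside the retinoic acid, Fgf and Hox counts stand the shares of all genes tested, 38.4% (RFP+ side) and 39.6% (GFP+ side). Whether these short lists depart from those shares was not tested.

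Surface and matrix genes were found on both sides. Among receptors and guidance molecules, 15 of 21 tested genes had higher levels in RFP+ cells and 3 had lower ones (median log2 fold change 1.00), beside 38.4% and 39.6% of all genes tested. Cdh11, a mesenchymal cadherin, had 102 to 384 CPM in RFP+ wells and 3.74 to 101 CPM in GFP+ wells (2.39 ± 0.13). Pdgfrb (1.84 ± 0.14) and Pdgfra (1.64 ± 0.13), receptors of platelet-derived growth factors, were higher in RFP+ cells, while their ligand Pdgfa was higher in GFP+ cells (-2.19 ± 0.14). Cxcr4, the chemokine receptor, and its ligand Cxcl12 were both higher in RFP+ cells (1.91 ± 0.19 and 1.51 ± 0.30). In the matrix list, 12 of 22 tested genes had higher levels in RFP+ cells and 8 had lower ones, beside the same shares of all genes tested. By size, 5 were at least 4-fold higher in RFP+ cells (0.981% of all genes tested) and 1 in GFP+ cells (5.24%). The ranges of 4 did not overlap (3.24%). Hapln1, which links hyaluronan to proteoglycans (4.16 ± 0.39), Vcan, the proteoglycan versican (2.02 ± 0.09), Fn1, fibronectin (1.83 ± 0.08), and the basement membrane chains Col4a1 (2.17 ± 0.13) and Lama1 (2.38 ± 0.21) were on the RFP+ side. Col1a1, of fibrillar collagen (-2.48 ± 0.24), Sparc, a collagen-binding protein (-1.91 ± 0.07), and Lama5 (-1.34 ± 0.16) were on the GFP+ side. Outside the lists, Col23a1, a membrane collagen, had 44.5 to 155 CPM in RFP+ and at most 22.2 CPM in GFP+ wells (4.20 ± 0.19), Col2a1, of cartilage, 32.3 to 122 against at most 22.6 CPM, and Aplnr, the apelin receptor of mesoderm, 18.9 to 119 against at most 13.6 CPM.

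Genes of DNA replication and mitosis were higher in RFP+ cells by smaller steps. Of 21 replication genes, 20 were higher in RFP+ cells and Cdt1 was not called (median log2 fold change 0.85). Of 20 mitosis genes, 19 were higher in RFP+ cells and Cdc20 was not called (median 0.68). Both shares stand beside 38.4% of all genes tested, and no gene of either list reached 4-fold. Ccne1, cyclin E1, had the largest difference (1.67 ± 0.13), and Rrm2, which makes deoxynucleotides, had 765 to 1205 CPM in RFP+ and 222 to 574 CPM in GFP+ wells. Across wells of a population, the mean of the 26 p53 targets and the mean of the mitosis genes (log2(CPM + 1)) ran against each other in GFP+ wells (Pearson's r = -0.63, Spearman's rho = -0.69, n = 37) and less so in RFP+ wells (-0.23 and -0.30, n = 46). Without the 2 wells farthest from the median p53 value, r was -0.57 and -0.29. Depth and library are shared by both means, and the difference between the populations was not tested.

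**Figure D5:**
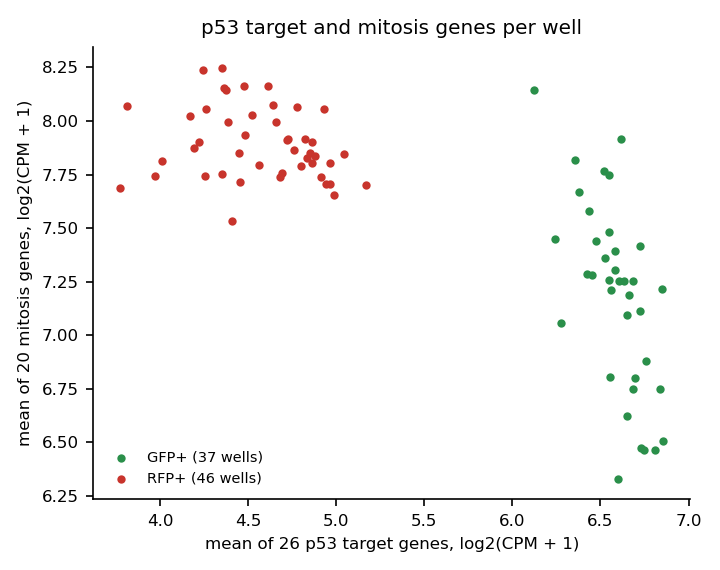
Mean of 20 mitosis genes against the mean of 26 p53 target genes, both in log2(CPM + 1); each point is a well (37 GFP+, 46 RFP+). The populations form separate clusters along the p53 axis, and within the GFP+ cluster the mitosis mean is lower where the p53 mean is higher (r = -0.63).

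Of 14 tested genes of the amino acid stress response, 10 had higher levels in GFP+ cells and 2 had lower ones (median log2 fold change -0.86). For this and the next list, the shares of all genes tested were 39.6% (GFP+) and 38.4% (RFP+). Ddit3 (Chop), a stress transcription factor, had 173 to 796 CPM in GFP+ and 3.55 to 114 CPM in RFP+ wells (-3.47 ± 0.14), Atf3 differed by -3.36 ± 0.21 and Trib3 by -3.18 ± 0.18, while Psat1, an enzyme of serine synthesis, was higher in RFP+ cells (0.61 ± 0.06). Of 8 tested immediate early genes, 6 were higher in GFP+ cells, among them Klf6 (466 to 1015 against 64.0 to 330 CPM) and Jun (13.1 to 54.3 against 0 to 12.6 CPM), and Ier2 (0.99 ± 0.11) and Egr1 (0.42 ± 0.23) were higher in RFP+ cells. The genes of highest mean level with a 4-fold difference were Malat1, a nuclear long noncoding RNA (12100 to 25534 CPM in GFP+ and 2257 to 6193 CPM in RFP+ wells), then Krt18, Mdm2, the lysosomal protease Ctsd and Atp6ap2, an accessory protein of the proton pump, on the GFP+ side. On the RFP+ side they were Nnat, Ifitm1, H19, Vcan and Igfbp5.

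Imprinted genes did not share a direction. Of 18 tested, 13 had higher levels in GFP+ cells and 3 had lower ones (median log2 fold change -1.03), beside 39.6% and 38.4% of all genes tested. Of these 3, Nnat, neuronatin, had 473 to 1457 CPM in RFP+ and 42.8 to 228 CPM in GFP+ wells (3.10 ± 0.11), H19, a growth-related noncoding RNA, 383 to 747 against 38.2 to 205 CPM (2.45 ± 0.10), and Igf2, its neighbour that encodes a growth factor, medians of 28.4 and 7.71 CPM (1.19 ± 0.25). On the GFP+ side, Ascl2, of trophoblast and stem cells (-3.21 ± 0.30), Grb10, an inhibitor of growth receptors (-2.71 ± 0.23), and Igf2r, which removes Igf2 (-1.93 ± 0.10), led, and the noncoding RNAs Meg3 and Rian of 1 locus differed by -1.60 ± 0.07 and -1.70 ± 0.08.

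Markers of other cell types were low or moved with the populations as follows. For the counts of this paragraph, the shares of all genes tested were 39.6% (GFP+ side) and 38.4% (RFP+ side). Hand1 and Kdr, with medians of 0 in RFP+ and 0.331 CPM in GFP+ wells, passed the filter through the population where they are high. Of 11 pluripotency genes, 6 were tested and all 6 were higher in GFP+ cells, and the summed level of the list was 104 to 1867 CPM in GFP+ and 9.39 to 692 CPM in RFP+ wells. Zfp42 (-3.39 ± 0.33), Dppa4 (-3.20 ± 0.19) and Utf1 (-2.65 ± 0.27) had the firmer differences. Dppa5a ran from 2.61 to 1245 CPM between GFP+ wells. Its SD on the log2 scale was 2.37 between GFP+ and 2.15 between RFP+ wells. Pou5f1 (Oct4) had medians of 24.8 CPM in GFP+ and 10.7 CPM in RFP+ wells. Of 12 endothelial genes, Kdr, a receptor of vascular growth factor (medians of 0.331 CPM in GFP+ and 13.8 CPM in RFP+ wells, 3.59 ± 0.34), and Egfl7 (0.91 ± 0.18) were tested; the list summed to 12.2 to 73.6 CPM in GFP+ and 6.84 to 294 CPM in RFP+ wells, and the medians of Cdh5 were 0 in both. Of 10 endoderm genes, Foxa2 (1.90 ± 0.37) and Cer1 (2.18 ± 0.42) were higher in RFP+ and Trf (-2.73 ± 0.28) and Hhex (-0.64 ± 0.22) in GFP+ cells, with sums of 13.4 to 328 CPM in GFP+ and 26.2 to 302 CPM in RFP+ wells and Sox17 medians of 0 and 0.768 CPM. Of 10 trophoblast genes, 3 were tested (Hand1, Gata3 and Krt7) and higher in GFP+ cells, while Tpbpa was at 0 in all wells; sums were 24.2 to 170 CPM in GFP+ and 9.08 to 193 CPM in RFP+ wells. Blood (at most 24.6 CPM in sum) and skeletal muscle genes (at most 9.83 CPM) had no gene tested, and neural genes summed to at most 72.3 CPM. The part of such cells in the differences above was not tested.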

How the data were processed

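Each library was amplified from 10 sorted cells. The raw counts deposited by the authors cover 24514 gene symbols. Per the labels, Trimmomatic 0.36, HISAT2 2.0.4 and featureCounts 1.5.2 were used with mm10 (GRCm38). The annotation and strand setting are not given in the sources used here. Reads carry no molecular identifiers, so intervals cover counting error only.

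Counts of 37 GFP+ and 46 RFP+ wells were compared in R 4.3.3 with edgeR 4.0.16: TMM, filterByExpr (minimum count 10, total 15, proportion 0.7), the quasi-likelihood F test and Benjamini-Hochberg adjustment over 9990 genes. SEs come from the F statistic. Genes below the filter were tested in a fit without it. A gene can pass the filter through the wells of a single population, so the directions of tested list members partly follow from the filter. The test was checked on simulated counts with 200 changed genes and independent wells. Far more genes were called in these data and some wells are alike, so the check does not cover the scaling or those wells. Depth was 445071 to 5658882 counts. Among the 65 tested genes named by size, gap, mean level or as markers, 31 passed every filter tried.

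Named genes were the 25 largest called differences per direction (counts in at least 90% of the wells of the higher population), the 5 widest gaps, the 5 highest means with a 4-fold change, Hcn4, Hand1, Krt18, Tbx1, Six2, Foxc2 and examples from the lists. Members and lists were chosen with earlier results of these data known. Alternatives were DESeq2 1.42.0, other scalings, filters and thresholds, plate row, summed wells and equal depth. Embryo libraries were not used here, and the 13 mitochondrial genes are not in the table. Some genes that these rules name are not reported here.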

Additional observations from a re-analysis of the deposited data

How the results depend on the processing

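The 65 tested genes named by size, gap, mean level or as markers kept direction and call in 651 of 651 values over 11 alternatives. Among them, 31 had a value in each alternative. They were picked from these same wells, mostly for large differences, so this outcome was largely fixed in advance. Genes named only as examples from the lists were not checked one by one. Keeping C9 gave 7747 calls of 9940 genes, plate row as a covariate 7804 (wells have no replicate number, and rows pair nothing, so no paired analysis was possible because the labels tie no GFP+ well to an RFP+ well), summed wells 7651, and leaving out 1 well of each alike pair 7594, an alternative added after the data were seen. Counts of calls also moved as follows, and the cause was not tested. The calls, those higher in GFP+ cells and the 4-fold ones higher in GFP+ and RFP+ cells numbered 13056, 7857, 1814 and 311 without a filter on low counts, and 4852, 2507, 212 and 35 (with 2345 higher in RFP+) at a minimum count of 50. DESeq2 called 10722 genes, 6476 higher in GFP+ cells, with 1705 and 265 of 4-fold. At equal depth 263 and 47 were of 4-fold. Against a 2-fold null (glmTreat) 1417 were called, 1092 higher in GFP+ and 325 in RFP+ cells. The share of calls higher in GFP+ cells was 50.8%, and 60.4% with DESeq2 and 60.2% without a filter, where the median log2 fold change of all genes was -0.20 and -0.19. Medians of some lists moved too, in log2 units. With DESeq2 they were -0.39 for calcium handling, a reversed sign, -0.50 for actin, -1.73 for lateral plate, 2.36 for paraxial, 0.38 for Wnt, 0.17 for retinoic acid, -1.12 for trophoblast and -0.11 for endoderm genes (0.63 in the report's fit, so the sign turned). Without a filter they were 0.034 for the heart field list, -0.29 for calcium handling (reversed), -1.65 for lateral plate, 2.35 for paraxial, 0.43 for Wnt, 0.22 for retinoic acid, -0.96 for trophoblast and -0.07 for endoderm genes (sign turned). At a minimum count of 50 they were 0.39 for cardiopharyngeal, -0.019 for Bmp, 0.12 for retinoic acid, -2.66 for p53, 0.92 for matrix and -0.36 for endoderm genes (reversed). At equal depth they were 1.54 for Hox, 0.42 for Wnt, 0.16 for retinoic acid, -0.56 for imprinted, 1.69 for matrix and -0.29 for endoderm genes (reversed). With summed wells the lateral plate median was -1.67. Different numbers of list members were tested in these fits.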

Other observations

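Lysosomal and germline genes were assembled into lists after the values had been seen, so their counts are descriptions. Of 39 genes of lysosomal enzymes and membranes, 34 were tested, 32 were higher in GFP+ cells, 2 were not called and none was higher in RFP+ cells (edgeR, adjusted p under 0.1). Their median log2 fold change was -1.57. Over all genes tested, 39.6% were higher in GFP+ cells. The proteases Ctsb (430 to 1227 CPM in GFP+ and 71.0 to 348 CPM in RFP+ wells) and Ctsl (755 to 1306 against 211 to 504 CPM), Hexa, which degrades gangliosides (306 to 832 against 15.2 to 161 CPM), and Grn, progranulin (235 to 629 against 16.6 to 130 CPM), did not overlap between the populations. The membrane proteins Lamp2 (482 to 910 against 83.0 to 271 CPM) and Cd63 (971 to 1823 against 305 to 657 CPM) did not overlap either. Renbp, a renin-binding protein on chromosome X that is on no list, had the widest gap after Cdkn1a on the GFP+ side (368 to 938 against 40.7 to 159 CPM).

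Of 24 germline genes, 14 were tested and 13 were higher in GFP+ cells, each by at least 4-fold, with a median log2 fold change of -3.34. Tdrkh was not called. A GFP+ level at least 4-fold higher was found for 5.24% of all genes tested. Nxf2 and Taf7l, with RFP+ medians of 0 and 0.779 CPM, passed the filter through the GFP+ wells where they are high. The counts of this list therefore partly follow from the filter and from its choice after the values were seen. Sycp3, of the meiotic chromosome axis, had 84.9 to 523 CPM in GFP+ and 0 to 127 CPM in RFP+ wells (-2.84 ± 0.22). Dazl and Ddx4, RNA-binding proteins of germ cells, differed by -3.28 ± 0.32 and -2.90 ± 0.24, and Hormad1 and Stk31 by -3.49 ± 0.28 and -3.41 ± 0.30. Ddx4 ran from 6.33 to 59.2 CPM between GFP+ wells. Taf7l and Nxf2, which the rule on size had named, belong to the same list.

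Genes of chromosome X had a median log2 fold change of -0.19 over 364 tested genes, against -0.002 over 9298 autosomal genes, and 8.24% of them were higher in GFP+ cells by at least 4-fold, against 5.16% of autosomal genes. Across the 9753 genes with an exonic length in GENCODE M21, the log2 fold change and length had a Spearman's rho of -0.09; by quartile of length, the shortest genes had a median of 0.10 and the longest of -0.11. Genes are not independent replicates, and these values carry no test.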
